A study of Mus musculus with 15 samples.

Results

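Ventral midbrain, the territory in which dopaminergic neurons arise, was compared with hindbrain, where serotonergic neurons arise, in mouse embryos at stage E12.5. The comparison used the 6 libraries that the labels assign to these regions, 3 of ventral midbrain and 3 of hindbrain, out of 15 libraries from 5 regions. All 6 came from C57bl/6 embryos that carried a green fluorescent protein (GFP) transgene under the promoter of Th, the gene of the enzyme that begins dopamine synthesis. Both groups therefore carry the reporter, and neither received a treatment. No label describes sorting of GFP-positive cells, so each library is taken here as a whole dissected piece of tissue. The pieces were cut out under a microscope and RNA was extracted with Trizol, per the labels' protocols. The labels do not say whether the 3 libraries of a region come from separate embryos, nor where along the hindbrain the tissue was taken. P-values therefore measure the spread between these libraries, which may be partly technical. Of 24264 genes in the deposited table, 13205 reached an RPKM (reads scaled by the length of the gene and the size of the library) of at least 1 in at least 3 of the 6 libraries and were tested.

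Dopaminergic neurons of the midbrain are born from the floor plate, the strip of cells along the ventral midline, under factors such as Lmx1a, Foxa2 and Otx2, and mature with Nr4a2 and Pitx3. Serotonergic neurons are born just caudal to them, on the hindbrain side of the midbrain-hindbrain boundary, under Nkx2-2, Gata2, Gata3, Lmx1b and Fev. Both kinds of neuron share the enzyme Ddc and the vesicle transporter Slc18a2, and the boundary between their territories lies where Otx2 of the midbrain meets Gbx2 of the hindbrain.

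Between 8328695 and 11368260 reads in gene models could be recovered per library, and 3 reads of a gene of median length were worth 0.0821 to 0.112 RPKM. Values below that were not detectable at this depth, counting error only. Across genes, the log2(RPKM + 1) values of the 3 ventral midbrain libraries had a Pearson r of 0.991 to 0.994 with each other. Hindbrain 2 and 3 had an r of 0.994, while hindbrain 1 had 0.984 with hindbrain 2 and 0.985 with hindbrain 3. Hindbrain 1 stands apart, and for some of the genes described below the difference or call without it is also given. Xist, expressed from the inactive X chromosome of females, was at 67.1, 62.6 and 0.217 RPKM in ventral midbrain 1, 2 and 3 and at 79.9, 61.7 and 0.216 RPKM in hindbrain 1, 2 and 3. Libraries numbered 3 instead held RNA of the Y-linked genes Eif2s3y, Kdm5d, Ddx3y and Uty. Both regions thus have libraries of the same sexes.

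Of the 13205 genes tested, 2176 (16.5%) were called different at an adjusted p under 0.05 (limma on log2(RPKM + 1), Benjamini-Hochberg). Of these, 1083 (8.2% of all genes tested) were higher in the ventral midbrain and 1093 (8.28%) were lower, which is the background for every count of list members below. The median difference over all genes tested was 0.002 on the log2(RPKM + 1) scale. Without regard to the test, the 3 ventral midbrain libraries lay all above or all below the 3 hindbrain libraries for 4831 genes (36.6%). Few called differences were large: 238 genes were over 2-fold higher and 159 over 2-fold lower in the ventral midbrain on that scale, and 52 and 36 were over 4-fold higher and lower. Every single library moved the number of calls by over 1.5 times when left out: 1321, 1362 and 1319 genes were called without ventral midbrain 1, 2 and 3, 3611 without hindbrain 1, 1320 without hindbrain 2 and 1217 without hindbrain 3. When all 15 libraries shared a fit and an estimate of spread, 524 genes were called, 328 higher and 196 lower. In that fit the spread also came from the other regions, where some libraries lay apart from their group. Lmx1a, for example, was at 0.207, 6.93 and 41.3 RPKM in forebrain 1, 2 and 3. The main fit left the other regions out for that reason.

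**Figure D1:**
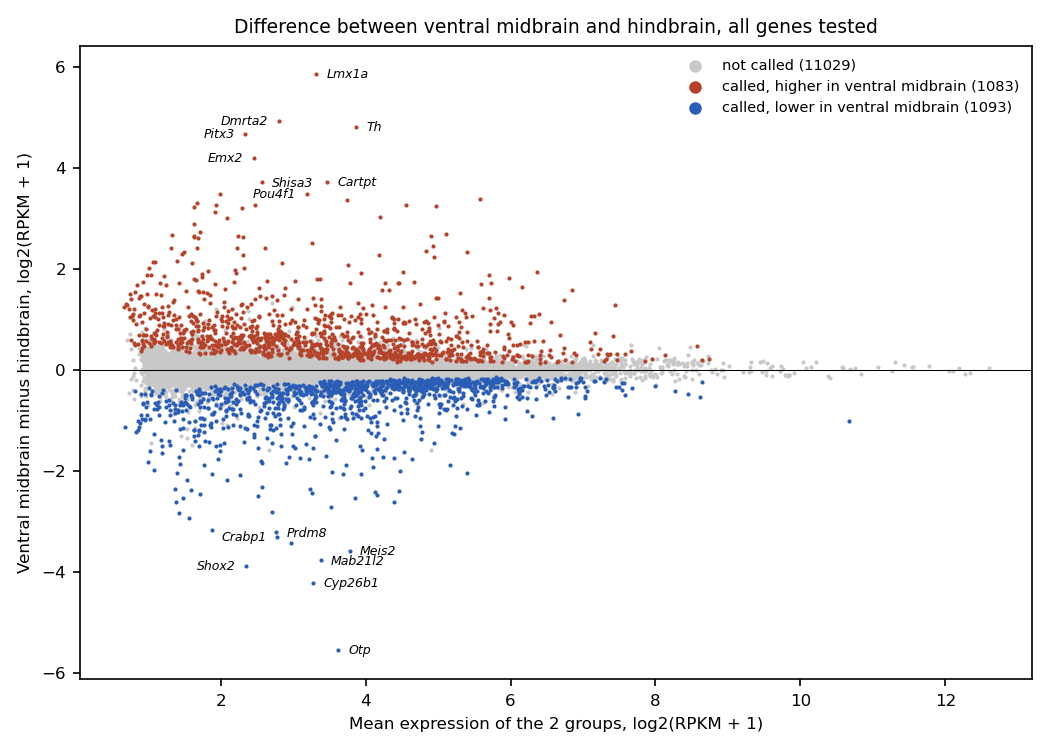
Difference between ventral midbrain and hindbrain (y axis, log2(RPKM + 1)) against the mean expression of both groups (x axis, log2(RPKM + 1)) for the 13205 genes tested, 1 point per gene. Red and blue points are the 1083 genes called higher and the 1093 called lower in the ventral midbrain, and genes named in the text among the 8 largest differences that the naming rule took in each direction carry their symbols, from Lmx1a at 5.85 to Otp at -5.54.

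The genes that make a neuron dopaminergic separated both regions widely. Th stood at 77.5, 81.7 and 68.9 RPKM in ventral midbrain 1, 2 and 3 and at 1.38, 2.3 and 1.66 RPKM in hindbrain 1, 2 and 3, a difference of 4.8 ± 0.12 (SE) on the log2(RPKM + 1) scale (adjusted p = 1.74e-06). Slc6a3, the dopamine transporter that takes dopamine back into the neuron, was at 6.55, 11.1 and 9.88 RPKM in the ventral midbrain and at 0.0267, 0 and 0 RPKM in the hindbrain, where a single read in hindbrain 1 is all that was seen (difference 3.31 ± 0.17, adjusted p = 4.07e-05). Pitx3, a transcription factor that midbrain dopaminergic neurons need, was at 20.4, 27.9 and 25.6 RPKM in the ventral midbrain and listed at 0 in every hindbrain library. Against a floor of 3 reads per library its ventral midbrain mean was at least 128-fold higher, and the fitted difference of 4.67 (adjusted p = 1.74e-06) is no bound. The dopamine receptor Drd2 was low in all libraries, at 2.82, 3.57 and 2.7 RPKM against 2.36, 2.17 and 1.72 RPKM, and did not pass the test (0.39 ± 0.13, adjusted p = 0.0775). Aldh1a1, an enzyme of a subset of dopaminergic neurons, stayed below 1 RPKM in all 6 libraries and was not tested. So 3 of the 4 tested members of the dopamine list were higher and none lower, with a median difference of 3.99, beside 8.2% of all genes called higher. Drd2 was called higher with the replicate number as a block (adjusted p = 0.0491) and without hindbrain 1 (adjusted p = 0.0387).

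Of the 10 genes that dopaminergic and serotonergic neurons share, 9 were tested, 4 were higher in the ventral midbrain and none lower, with a median difference of 0.42. Ddc, the decarboxylase that makes either transmitter, had the widest gap: 144, 167 and 153 RPKM in the ventral midbrain against 25.1, 9.75 and 10.7 RPKM in the hindbrain (3.39 ± 0.30, adjusted p = 0.000354). Gch1, which makes the cofactor that the hydroxylases of both pathways need, was at 14, 13.9 and 14 RPKM against 3.62, 3.19 and 3.43 RPKM (1.76 ± 0.07, adjusted p = 1.25e-05). Slc18a2, which loads amines into vesicles, was less uneven, at 43.5, 48.2 and 47.2 RPKM against 25.7, 20.7 and 23.8 RPKM (0.96 ± 0.08, adjusted p = 0.000289). Spr, a later enzyme of the cofactor pathway, differed by 0.42 ± 0.11 (adjusted p = 0.0409). The enzymes Pts, Qdpr and Pcbd1 of the same cofactor and the monoamine oxidases Maoa and Maob were not called, with adjusted p from 0.0694 for Pcbd1 to 0.365 for Pts. Maoa was at 5.54, 7.69 and 7.39 RPKM in the ventral midbrain and at 8.08, 8.59 and 8.43 RPKM in the hindbrain. Without hindbrain 1, 6 of the 9 tested genes were higher, and 2 were when all 15 libraries shared a fit. Pcbd1 and Maob were called higher without hindbrain 1 (adjusted p = 0.0131 and 0.0432). Leaving out 1 library ended the call of Spr (without ventral midbrain 1, 2 or 3 or hindbrain 2 or 3, adjusted p from 0.0796 to 0.135). When all 15 libraries shared a fit, Slc18a2 and Spr were not called (adjusted p from 0.393 to 0.53). Spr also missed the threshold without the filter on low values or without the variance trend (adjusted p from 0.0539 to 0.0642).

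The main serotonergic genes were expressed in the samples of both regions. Tph2, the enzyme that begins serotonin synthesis in neurons, stood at 6.18, 12.8 and 10.9 RPKM in ventral midbrain 1, 2 and 3 and at 27.8, 15.2 and 15.7 RPKM in hindbrain 1, 2 and 3. Its groups did not overlap, but the difference of -0.91 ± 0.29 did not pass the test (adjusted p = 0.073). Slc6a4, the serotonin transporter, was at 14.2, 25.6 and 20.2 RPKM in the ventral midbrain and at 37.3, 25 and 31.9 RPKM in the hindbrain, with ventral midbrain 2 above hindbrain 2 (-0.65 ± 0.21, adjusted p = 0.0787). Fev, the transcription factor that switches on the serotonergic genes, was at 9.27, 15.8 and 12 RPKM against 14.7, 8.92 and 10.4 RPKM, with overlapping groups and a difference of 0.11 ± 0.21 (adjusted p = 0.764). Among the hindbrain libraries, hindbrain 1 was the highest in Tph2, Slc6a4 and Fev, and among the ventral midbrain libraries, number 2 was the highest and number 1 the lowest in all of them. A p that misses the threshold does not show equal levels. Slc22a3, a transporter with low affinity for amines, was lower in the ventral midbrain, at 1.42, 2.54 and 2.4 RPKM against 5.1, 4.58 and 4.71 RPKM (-0.91 ± 0.15, adjusted p = 0.0064). Htr1a, the serotonin receptor by which these neurons sense their own transmitter, was also lower, at 0.537, 0.639 and 0.573 RPKM against 1.26, 1.49 and 1.62 RPKM (-0.63 ± 0.11, adjusted p = 0.00754). In all, 2 of the 6 tested members of the serotonin list were lower in the ventral midbrain and none higher, with a median difference of -0.66, beside 8.28% of all genes called lower. Slc6a4 was called lower without ventral midbrain 2 (adjusted p = 0.046).

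The other 3 regions set a scale for these levels. Fev had a mean of 0.0182 RPKM in the dorsal midbrain, 0 RPKM in the tissue labelled alar plate and 0 RPKM in the forebrain, and Tph2 had 0.0616, 0.0624 and 0.476 RPKM there (n = 3 libraries each). Slc6a4, which other brain cells can also express, had 0.247, 0.133 and 0.0822 RPKM. The serotonergic genes were thus seen in the ventral midbrain and hindbrain samples at levels of the same order and were low elsewhere. The source of this RNA in the ventral midbrain samples was not tested. In whole tissue, fewer cells of a type and less RNA per cell cannot be told apart, here or for any gene below.

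The noradrenergic genes Dbh and Slc6a2 were low in both regions. Dbh, which turns dopamine into noradrenaline, was at 3.19, 1.61 and 0.511 RPKM in hindbrain 1, 2 and 3 and at most 0.0466 RPKM in the ventral midbrain. Slc6a2, the noradrenaline transporter, was at 2.9, 1.92 and 0.447 RPKM in the hindbrain and at most 0.0829 RPKM in the ventral midbrain. Neither reached 1 RPKM in 3 libraries, so neither was tested. In both genes hindbrain 1 was the highest and hindbrain 3 the lowest of the hindbrain libraries. With the replicate number as a block, Phox2a was higher (adjusted p = 0.0123) and Tfap2b lower (adjusted p = 0.048). The same calls were made without hindbrain 1 (adjusted p = 0.0285 for Phox2a and 0.00389 for Tfap2b), and Tfap2b was also lower with a pseudocount of 0.1 (adjusted p = 0.0261).

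**Figure D2:**
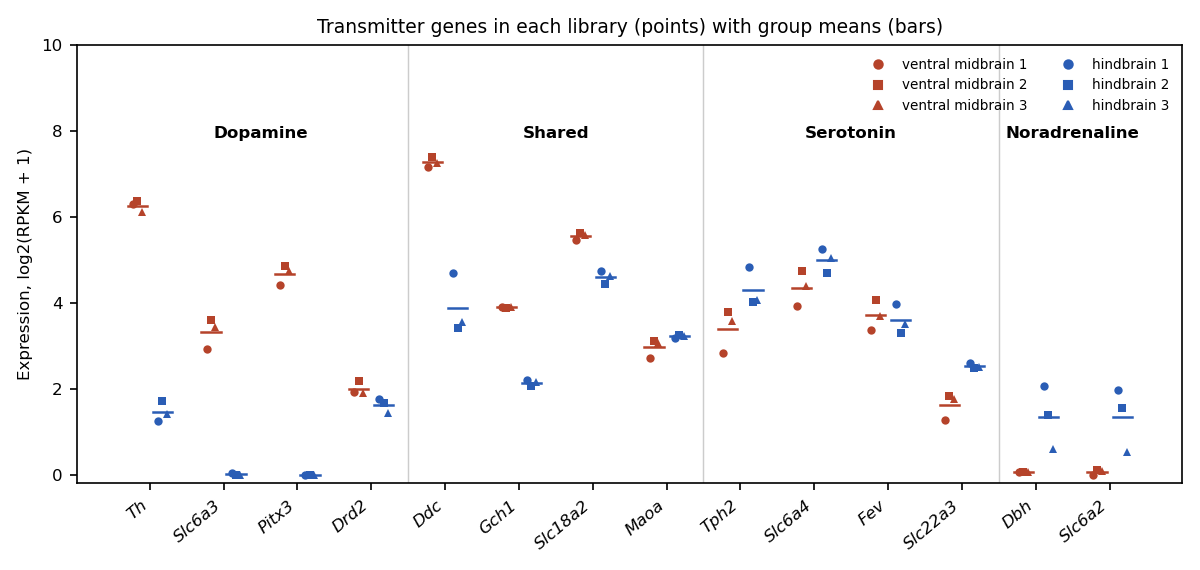
Expression (y axis, log2(RPKM + 1)) of dopaminergic, shared, serotonergic and noradrenergic genes (x axis) in each of the 3 ventral midbrain (red) and 3 hindbrain (blue) libraries, with the symbol giving the replicate number and a bar at each group's mean. Th, Slc6a3 and Pitx3 of the ventral midbrain lie far above the hindbrain, while the points of Slc6a4 and Fev overlap between the regions.

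The upstream sequences of 4 of these genes are shown because Th and Slc6a3 differed between the regions while Tph2 and Fev did not pass the test. They are the 250 bases before each RefSeq start on GRCm38.p6, 5′ to 3′ on the gene's own strand, in lower case, with matches to 2 searched motifs in capitals: AGATAA, the core read by GATA factors, and TAATTA, a core read by homeodomain factors.
Th, chr7:142899996-142900245, minus strand: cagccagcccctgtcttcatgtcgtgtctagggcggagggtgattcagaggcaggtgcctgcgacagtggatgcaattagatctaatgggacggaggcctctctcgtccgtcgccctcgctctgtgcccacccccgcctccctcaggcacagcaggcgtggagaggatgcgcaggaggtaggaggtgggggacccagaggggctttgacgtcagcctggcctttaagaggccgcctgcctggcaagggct
Slc6a3, chr13:73536497-73536746, plus strand: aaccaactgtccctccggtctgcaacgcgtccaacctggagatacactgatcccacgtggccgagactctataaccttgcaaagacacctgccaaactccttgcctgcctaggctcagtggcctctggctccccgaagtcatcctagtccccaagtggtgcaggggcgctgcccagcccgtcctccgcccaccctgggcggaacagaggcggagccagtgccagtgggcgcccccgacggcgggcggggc
Tph2, chr10:115185023-115185272, minus strand: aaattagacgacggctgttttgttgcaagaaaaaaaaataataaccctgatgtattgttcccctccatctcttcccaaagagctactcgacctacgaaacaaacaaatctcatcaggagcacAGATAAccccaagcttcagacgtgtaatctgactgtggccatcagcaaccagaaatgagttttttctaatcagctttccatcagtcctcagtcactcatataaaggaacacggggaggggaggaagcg
Fev, chr1:74885409-74885658, minus strand: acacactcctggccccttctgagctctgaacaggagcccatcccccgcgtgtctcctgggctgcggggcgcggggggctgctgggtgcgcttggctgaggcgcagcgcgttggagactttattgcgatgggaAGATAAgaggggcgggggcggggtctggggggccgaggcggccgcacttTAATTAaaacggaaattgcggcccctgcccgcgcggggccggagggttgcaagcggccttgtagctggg
AGATAA begins 128 bases before the start of Tph2 and 118 bases before that of Fev, and TAATTA begins 69 bases before that of Fev. Neither motif is in the windows of Th and Slc6a3. Both strands were searched, and neither motif lies within the other. Of all 32851 RefSeq promoters of this length, 9.99% hold AGATAA and 4.84% hold TAATTA. Of the 9071 tested genes with such a promoter, 6.57% and 2.86% do. The windows of Th, Slc6a3, Tph2 and Fev also held no match to TAATCC (in 6.25% of promoters), AAAGGTCA (1.34%), CCGGAA (12%) or TGTTTAC (3.17%). Among the tested genes these shares were 5.91%, 0.926%, 25.1% and 2.48%. A match is a description of the letters and not a binding site.

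Factors of the dopaminergic floor plate and its progenitors made up much of the top of the ranking. Lmx1a, which directs floor plate cells to the dopaminergic fate, was at 81.8, 74.4 and 68.6 RPKM in the ventral midbrain and 0.166, 0.571 and 0.236 RPKM in the hindbrain, the largest difference that the naming rule took (5.85 ± 0.12, adjusted p = 7.76e-07). Dmrta2, a transcription factor of midbrain floor plate progenitors, was at 38.9, 38.3 and 35.4 RPKM against 0.187, 0.224 and 0.373 RPKM (4.93 ± 0.09, adjusted p = 3.55e-07). Msx1, a homeodomain factor that acts downstream of Lmx1a, was at 13, 12.8 and 10.9 RPKM against 0.187, 0.21 and 0.16 RPKM (3.48 ± 0.10, adjusted p = 2.27e-06). Foxa2, a forkhead factor of the whole floor plate, had clear hindbrain levels of 9.35, 4.79 and 6.3 RPKM, against 75.5, 70.3 and 70.8 RPKM in the ventral midbrain (3.27 ± 0.18, adjusted p = 4.99e-05). Foxa1 followed the same pattern with 77.1, 74.8 and 71.4 RPKM against 16.5, 8.26 and 9.42 RPKM (2.66 ± 0.21). Neurog2, the proneural factor of dopaminergic precursors, was at 78.3, 65.2 and 56.7 RPKM against 12.2, 13.5 and 14.1 RPKM (2.24 ± 0.11, adjusted p = 3.25e-05). Shh, the ligand that the floor plate secretes, was at 51.8, 48 and 51.7 RPKM against 27.7, 13 and 16.6 RPKM (1.43 ± 0.23, adjusted p = 0.00555). Corin, a protease used as a surface marker of the floor plate, differed by 1.02 ± 0.15, and Ferd3l, a helix-loop-helix factor, by 1.59 ± 0.22.

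Other genes of the floor plate list did not pass the test. The guidance cue Ntn1 was at 229, 237 and 253 RPKM in the ventral midbrain and 229, 135 and 156 RPKM in the hindbrain (adjusted p = 0.0868), and the sulfatase Sulf1 at 303, 280.4 and 336 RPKM against 309.8, 178 and 208 RPKM (adjusted p = 0.154). In both, hindbrain 1 lay near the ventral midbrain and hindbrain 2 and 3 lay below it. Of the 23 genes of the floor plate and progenitor list, all tested, 17 were higher in the ventral midbrain and none lower, with a median difference of 1.73, beside 8.2% of all genes called higher. The count was 17 without any 1 ventral midbrain library, hindbrain 2 or hindbrain 3, 21 without hindbrain 1 and 13 in the fit of all 15 libraries. The fit of all 15 libraries did not call Neurog2 and Shh (adjusted p from 0.0943 to 0.133). Ntn1 was called higher without hindbrain 1 (adjusted p = 0.000265). Sulf1 was called higher without hindbrain 1 (adjusted p = 0.00137).

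Of the 26 genes of the dopaminergic neuron list 24 were tested. Called higher in the ventral midbrain were 20 of these and called lower 1, beside 8.2% and 8.28% of all genes tested. The median difference of the list was 2.40. Nr4a2, the nuclear receptor without which these neurons do not mature, was at 92.7, 99.7 and 89.1 RPKM in the ventral midbrain, and its hindbrain values of 5.99, 25.1 and 35.1 RPKM were uneven, with hindbrain 1 far below the others (2.34 ± 0.53, adjusted p = 0.0227). Otx2, which marks forebrain and midbrain, was at 65.2, 44.3 and 47.6 RPKM against 4.22, 4.07 and 9.07 RPKM (3.03 ± 0.27, adjusted p = 0.000347). Chrna6, a nicotinic receptor subunit of aminergic neurons, was at 6.79, 10.8 and 8.16 RPKM in the ventral midbrain, with 1 read in the 3 hindbrain libraries together (3.23 ± 0.15, adjusted p = 2.67e-05). Ret, the receptor for the survival factor GDNF, was at 10.3, 11.7 and 10.8 RPKM against 0.486, 1.2 and 1.05 RPKM (2.66 ± 0.15, adjusted p = 5.18e-05). Vip, a neuropeptide listed there for a subset of these neurons, was at 7.09, 7.29 and 6.0 RPKM against 0.175, 0.577 and 0 RPKM (2.66 ± 0.17). The only listed gene called lower in the ventral midbrain was Dcc, the receptor for the guidance cue Ntn1, at 35.2, 35.1 and 36 RPKM against 51.1, 52.5 and 56.3 RPKM (-0.58 ± 0.05, adjusted p = 0.000309). In the fit of all 15 libraries 11 of the 24 were higher and none lower. The number higher was 16 without any 1 ventral midbrain library, 17 without hindbrain 2, 18 without hindbrain 3 and 20 without hindbrain 1. Without hindbrain 1, 2 listed genes were called lower, among them Calb1, whose values are given below. Nr4a2 differed by 1.63 without hindbrain 1. Among the genes described, leaving out 1 library ended the call of Nr4a2 (without ventral midbrain 1, 2 or 3, adjusted p from 0.0694 to 0.0754). Not called when all 15 libraries shared a fit were Nr4a2 and Dcc (adjusted p from 0.314 to 0.529).

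Factors of the serotonergic lineage fell on both sides. Gata2, which serotonergic precursors need, was lower in the ventral midbrain, at 8.89, 12.3 and 11.2 RPKM against 29.4, 24.1 and 27.4 RPKM (-1.25 ± 0.12, adjusted p = 0.000473). Gata3, its relative in the same cells, was at 7.63, 11.5 and 9.39 RPKM against 41.3, 27.1 and 32.8 RPKM (-1.72 ± 0.17, adjusted p = 0.000646). Both also act in GABAergic neurons. Lmx1b, which dopaminergic and serotonergic neurons alike require, was higher in the ventral midbrain, at 44.6, 44.7 and 46.2 RPKM against 14.8, 12.8 and 11.2 RPKM (1.73 ± 0.09, adjusted p = 4.09e-05). Its relative Lmx1a was nearly absent from the hindbrain, as given above, so the hindbrain held Lmx1b with little Lmx1a. Nkx2-2, which sets up the progenitors of serotonergic neurons, was at 3.92, 4.55 and 5.25 RPKM against 6.6, 5.49 and 6.91 RPKM and did not pass the test (-0.4 ± 0.12, adjusted p = 0.058). Insm1, a zinc finger factor of newborn neurons, was at 17.3, 19.3 and 18.2 RPKM against 28.8, 21.7 and 21.1 RPKM (adjusted p = 0.0739). Of the 13 listed factors 6 were higher and 2 lower, with a median of 0.64. The 6 higher ones include Foxa2, Lmx1b, En1 and En2, which the dopaminergic lists also hold. Without ventral midbrain 2 or 3, 3 were higher and 2 lower, and in the fit of all 15 libraries 3 were higher and 1 lower. When all 15 libraries shared a fit, Gata3 and Lmx1b were not called (adjusted p from 0.0978 to 0.255). Nkx2-2 was called lower after quantile normalization (adjusted p = 0.0473) and with the replicate number as a block (adjusted p = 0.0383). Insm1 was called lower without hindbrain 1 (adjusted p = 0.0332).

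At the midbrain-hindbrain boundary Otx2 and Gbx2 mark the midbrain and hindbrain sides. Gbx2 was at 1.15, 0.881 and 0.793 RPKM in the ventral midbrain and at 0.128, 7.44 and 7.47 RPKM in hindbrain 1, 2 and 3, so hindbrain 1 lay below every ventral midbrain library and the others well above. The difference of -1.16 ± 0.71 did not pass the test (adjusted p = 0.315), and without hindbrain 1 Gbx2 was lower in the ventral midbrain (adjusted p = 1.52e-05). En1 and En2, homeodomain factors of the tissue around the boundary, showed the reverse unevenness. En1 was at 67, 76.7 and 67.5 RPKM in the ventral midbrain and 39.7, 8.56 and 4.55 RPKM in the hindbrain (2.46 ± 0.63, adjusted p = 0.0351), and En2 at 85.9, 87.7 and 86.6 RPKM against 37, 9.08 and 5.51 RPKM (2.69 ± 0.56, adjusted p = 0.016). The boundary ligand Fgf8 was at 2.27, 2.89 and 2.36 RPKM in the ventral midbrain and 0, 0.12 and 0 RPKM in the hindbrain (1.75 ± 0.12, adjusted p = 0.000102). Wnt1, the ligand on the midbrain side, was at 6.46, 5.18 and 4.59 RPKM in the ventral midbrain and listed at 0 in all hindbrain libraries, at least 46.9-fold higher against a floor of 3 reads per library. Fgf15, in contrast, was lower in the ventral midbrain, at 0.291, 0.626 and 0.195 RPKM against 6.23, 5.42 and 4.0 RPKM (-2.18 ± 0.17). Pax2, an early boundary gene that later marks inhibitory neurons of the hindbrain, was also lower, at 0.39, 0.409 and 0.119 RPKM against 1.98, 7.78 and 4.82 RPKM (-2.04 ± 0.35, adjusted p = 0.00749). Of the 22 tested boundary genes 11 were higher and 4 lower. The counts were 7 and 4 without ventral midbrain 1, ventral midbrain 3 or hindbrain 2, 7 and 3 without ventral midbrain 2, and 4 and 2 in the fit of all 15 libraries. With 1 library left out, the call was lost for En1 (without ventral midbrain 1, 2 or 3 or hindbrain 2 or 3, adjusted p from 0.0889 to 0.11) and En2 (without ventral midbrain 1, 2 or 3 or hindbrain 2, adjusted p from 0.0563 to 0.0589). The fit of all 15 libraries did not call En1, En2 and Fgf15 (adjusted p from 0.0588 to 0.0673). En1 also missed the threshold without the filter on low values or without the variance trend (adjusted p from 0.0538 to 0.0595).

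Hox genes, which give hindbrain and spinal cord their positional identity, differed among the hindbrain libraries. Of 22 Hox genes in the table, 3 reached 1 RPKM in any hindbrain library and none did in the ventral midbrain. Hoxa2, expressed from the second rhombomere backwards, was at 0.107, 11.1 and 6.24 RPKM in hindbrain 1, 2 and 3, and Hoxb2 at 0, 8.99 and 3.05 RPKM. Hoxb3 was at 0, 1.65 and 0.127 RPKM, so it passed 1 RPKM in hindbrain 2 only. The 14 Hox genes of paralogue groups 4 and above did not exceed 0.056 RPKM in any hindbrain library. Summed over the 22 genes, hindbrain 1 had 0.705 RPKM, hindbrain 2 had 22.6 and hindbrain 3 had 10.4. No Hox gene reached 1 RPKM in 3 of the 6 libraries, so none was tested.

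Hindbrain 1 also differed from the other hindbrain libraries in other genes that mark position. Pax5 and Cnpy1, both of the boundary region, were at 18.2, 4.76 and 3.41 RPKM and 8.59, 1.94 and 1.29 RPKM in hindbrain 1, 2 and 3. Pax7, a factor of the dorsal neural tube, was at 15.5, 4.35 and 2.39 RPKM and Tfap2b at 7.07, 1.42 and 1.01 RPKM. In these genes, En1 and En2, hindbrain 1 was the highest hindbrain library. Meis2, a partner of Hox proteins, was lower in hindbrain 1 than in the others, at 11.5, 106 and 78.6 RPKM, and so was Meis1, at 13.1, 47.8 and 41 RPKM. Calb1, a calcium-binding protein, was at 0.801, 7.08 and 7.9 RPKM. Meis2 was at 3.45, 2.07 and 3.58 RPKM in the ventral midbrain, below all hindbrain libraries. Without hindbrain 1 the difference between the regions was 3.29 for En1, 3.44 for En2, 1.32 for Pax5 and 3.13 for Cnpy1, against 2.46, 2.69, 0.67 and 2.51 with it. It was -4.54 for Meis2, -2.13 for Meis1, -2.22 for Calb1 and -2.13 for Gbx2 without that library, against -3.58, -1.57, -1.48 and -1.16 with it. For Pax7 and Tfap2b it was -1.88 and -0.83 against -2.53 and -1.45. Pax5 was called higher in the ventral midbrain (adjusted p = 0.000487) and Calb1 lower (adjusted p = 3.06e-05) without hindbrain 1, and neither was called with it. These genes were chosen after their values were seen, and with 1 such library the difference among hindbrain libraries has no replicate check. Whether the dissections reached different levels of the hindbrain was not tested.

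**Figure D3:**
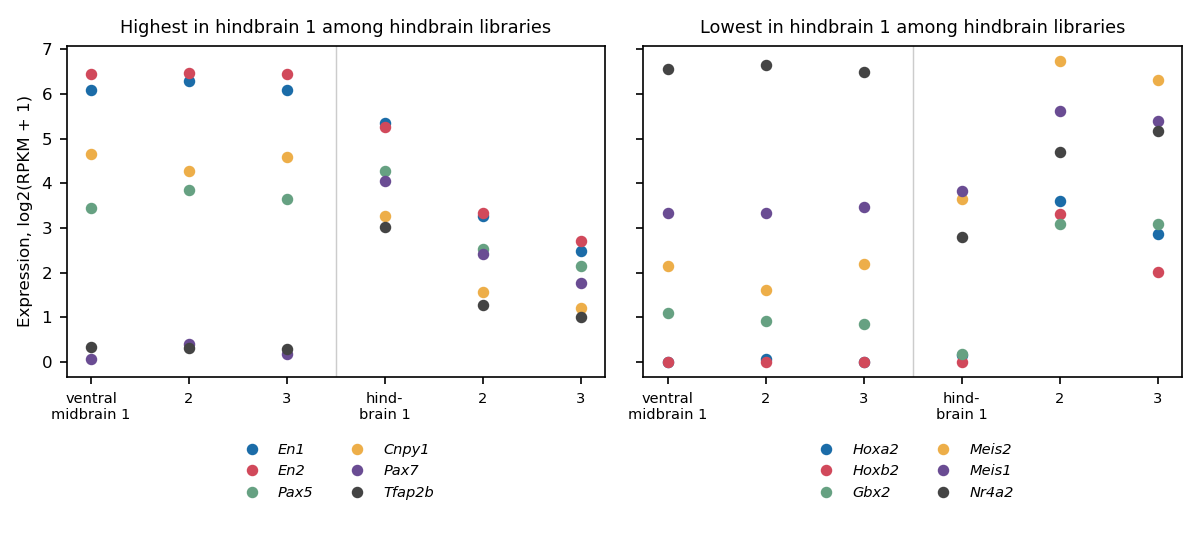
Expression (y axis, log2(RPKM + 1)) in the 3 ventral midbrain and 3 hindbrain libraries (x axis), 1 point per gene and library, of 6 genes highest in hindbrain 1 among the hindbrain libraries (left) and 6 lowest there (right). Hindbrain 1 holds 39.7 RPKM of En1 but 0.107 RPKM of Hoxa2, against 11.1 and 6.24 RPKM in hindbrain 2 and 3.

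The largest differences in favour of the hindbrain included transcription factors of hindbrain neurons. Otp, a homeodomain factor of several neuron classes, was at 0, 1.4 and 1.45 RPKM in the ventral midbrain and at 57.8, 103 and 95.6 RPKM in the hindbrain (-5.54 ± 0.37, adjusted p = 9.31e-05). Shox2 was at 0.131, 0.503 and 0.384 RPKM against 19.1, 19.9 and 16.5 RPKM (-3.87 ± 0.13, adjusted p = 6.5e-06). Its means of 47.0, 40.4 and 34.8 RPKM in dorsal midbrain, alar plate and forebrain set the ventral midbrain apart as the low region. Skor1 and Skor2, related repressors, were at 11.6, 8.88 and 9.89 and 4.55, 6.87 and 7.38 RPKM in the hindbrain, and no ventral midbrain library exceeded 0.437 RPKM of Skor1 or 0.0342 RPKM of Skor2. Prdm8, a PR-domain family member, was at 1.38, 1.06 and 1.27 RPKM against 18.2, 21.1 and 19.8 RPKM, with tight replicates (-3.21 ± 0.09, adjusted p = 2.27e-06). Foxd3, better known from neural crest, was at 0.0448, 0.138 and 0 RPKM against 1.61, 8.66 and 9.48 RPKM (-2.6 ± 0.48, adjusted p = 0.0101). Without hindbrain 1 Foxd3 differed by -3.25. Of the 18 tested genes of the hindbrain neuron list 13 were lower in the ventral midbrain and 1 was higher, with a median of -1.95. The higher one was Pou4f1, a POU-domain factor of red nucleus and sensory neurons, at 27.4, 29.9 and 31.3 RPKM against 4.39, 0.876 and 0.999 RPKM (3.48 ± 0.37, adjusted p = 0.000735). Means of Pou4f1 were 53.8, 56.1 and 8.28 RPKM in dorsal midbrain, alar plate and forebrain, against 29.5 RPKM in the ventral midbrain. Foxd3 also missed the threshold in limma voom on recovered reads (adjusted p = 0.0596). Of the 5 regions, Otp, Skor1, Skor2, Prdm8 and Foxd3 had their highest mean in the hindbrain. Prdm8 was not confined to it, with means of 7.47, 5.89 and 11.6 RPKM in dorsal midbrain, alar plate and forebrain. It reached 16.3 RPKM in dorsal midbrain 3 and 18.8 RPKM in forebrain 1. Mab21l2 and Dbx1, also in the hindbrain neuron list, had means of 85.3 and 66.4 RPKM in the dorsal midbrain. Their hindbrain means were 39.1 and 5.89 RPKM.

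**Figure D4:**
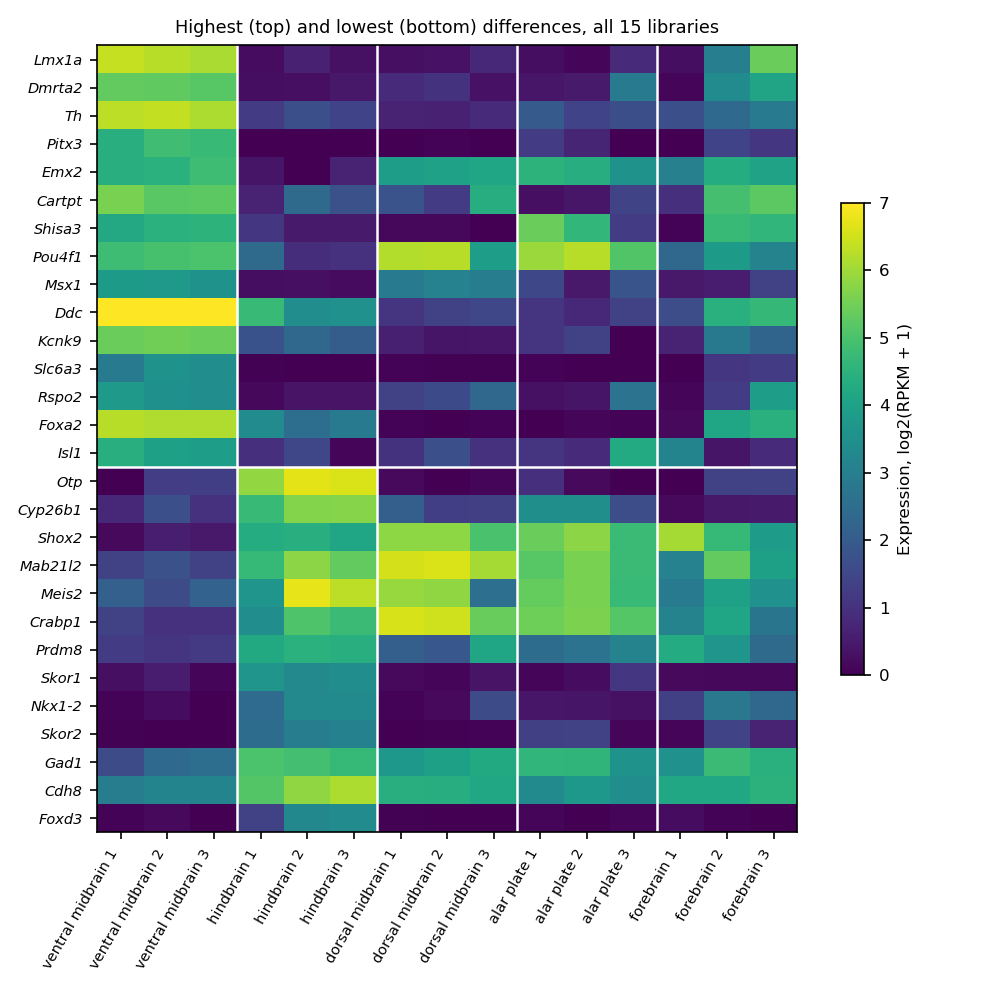
Expression (colour, log2(RPKM + 1), with values above 7 drawn as 7) of the 15 highest (top rows) and of 13 of the 15 lowest (bottom rows) differences taken by the naming rule, in all 15 libraries of the series (columns). Of the upper 15 genes 13 had their highest regional mean in the ventral midbrain and 2 in the alar plate, and of the lower 13 genes 10 had it in the hindbrain and 3 in the dorsal midbrain.

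The inhibitory programme was lower in the ventral midbrain almost throughout. Gad1, which makes the transmitter GABA, was at 2.06, 4.23 and 4.74 RPKM in the ventral midbrain and 31.6, 28.8 and 24.8 RPKM in the hindbrain (-2.7 ± 0.22, adjusted p = 0.000267). Gad2, the second such enzyme, was at 4.92, 7.15 and 7.64 RPKM against 38.9, 27 and 26.2 RPKM (-2.06 ± 0.19, adjusted p = 0.000361). Slc32a1, which loads GABA and glycine into vesicles, was at 3.01, 6.64 and 6.09 RPKM against 35.7, 33.5 and 31.8 RPKM (-2.53 ± 0.22, adjusted p = 0.000335). In these genes ventral midbrain 1 was the lowest of all 6 libraries. Tal1, a factor that selects the GABAergic fate, was at 5.07, 6.87 and 8.16 RPKM against 49.7, 36 and 38.2 RPKM (-2.47 ± 0.17, adjusted p = 0.000102). Sox14, a factor of GABAergic subtypes, was at 2.56, 4.77 and 2.49 RPKM against 63.5, 14 and 8.99 RPKM, where hindbrain 1 stood out (-2.36 ± 0.62, adjusted p = 0.0394). Without hindbrain 1 its difference was -1.56. Of the 16 tested GABAergic and glycinergic genes 13 were lower and none higher, with a median of -1.28, and 8 were lower in the fit of all 15 libraries. Excitatory transporters did not share one direction: Slc17a6 was higher at 29, 27.6 and 29 RPKM against 8.32, 18 and 15.7 RPKM (1.04 ± 0.23, adjusted p = 0.0222), and Slc17a8 was lower at 9.38, 13.2 and 12.1 RPKM against 24, 18.8 and 26.3 RPKM (-0.94 ± 0.15, adjusted p = 0.00509). Single libraries decided the call of Sox14 (without ventral midbrain 1, 2 or 3 or hindbrain 2, adjusted p from 0.0673 to 0.126) and Slc17a6 (without ventral midbrain 1, 2 or 3, adjusted p from 0.0662 to 0.0765). Slc17a8 was not called when all 15 libraries shared a fit (adjusted p = 0.084). Sox14 also missed the threshold without the filter on low values, without the variance trend or in limma voom on recovered reads (adjusted p from 0.0588 to 0.132).

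The dorsal patterning genes Pax3, Pax7 and Dbx1 were scarce in the ventral midbrain. Pax3 and Pax7, which mark dorsal progenitors, reached at most 0.0703 and 0.312 RPKM there, against 4.31, 3.14 and 1.37 and 15.5, 4.35 and 2.39 RPKM in hindbrain 1, 2 and 3. Pax3 differed by -1.82 ± 0.27 (adjusted p = 0.00372) and Pax7 by -2.53 ± 0.51 (adjusted p = 0.0138). Dbx1, of progenitors midway between dorsal and ventral, was at 0.357, 0.353 and 0.256 RPKM against 6.86, 6.35 and 4.47 RPKM (-2.37 ± 0.15, adjusted p = 7.58e-05). Mab21l2 was at 1.62, 2.34 and 1.56 RPKM against 24.7, 53.7 and 39 RPKM (-3.76 ± 0.25), and the related Mab21l1 at 8.94, 8.36 and 8.59 RPKM against 38.4, 62.6 and 49.5 RPKM (-2.38 ± 0.15). Of the 16 tested genes of the dorsal list 7 were lower and 4 higher, with a median of -0.63. The higher ones included Lmx1a and Msx1, which are also floor plate genes of the midbrain, and Bmp7, a ligand of the BMP pathway, at 9.6, 7.51 and 7.42 RPKM against 1.24, 1.94 and 0.863 RPKM (1.98 ± 0.18). Differences between dorsal and ventral tissue and between midbrain and hindbrain cannot be told apart in this comparison. The call rested on single libraries for Pax7 (without ventral midbrain 1 or 3, adjusted p from 0.0512 to 0.0563). Pax7 was not called when all 15 libraries shared a fit (adjusted p = 0.0619). Pax7 also missed the threshold in limma voom on recovered reads (adjusted p = 0.0776).

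**Figure D5:**
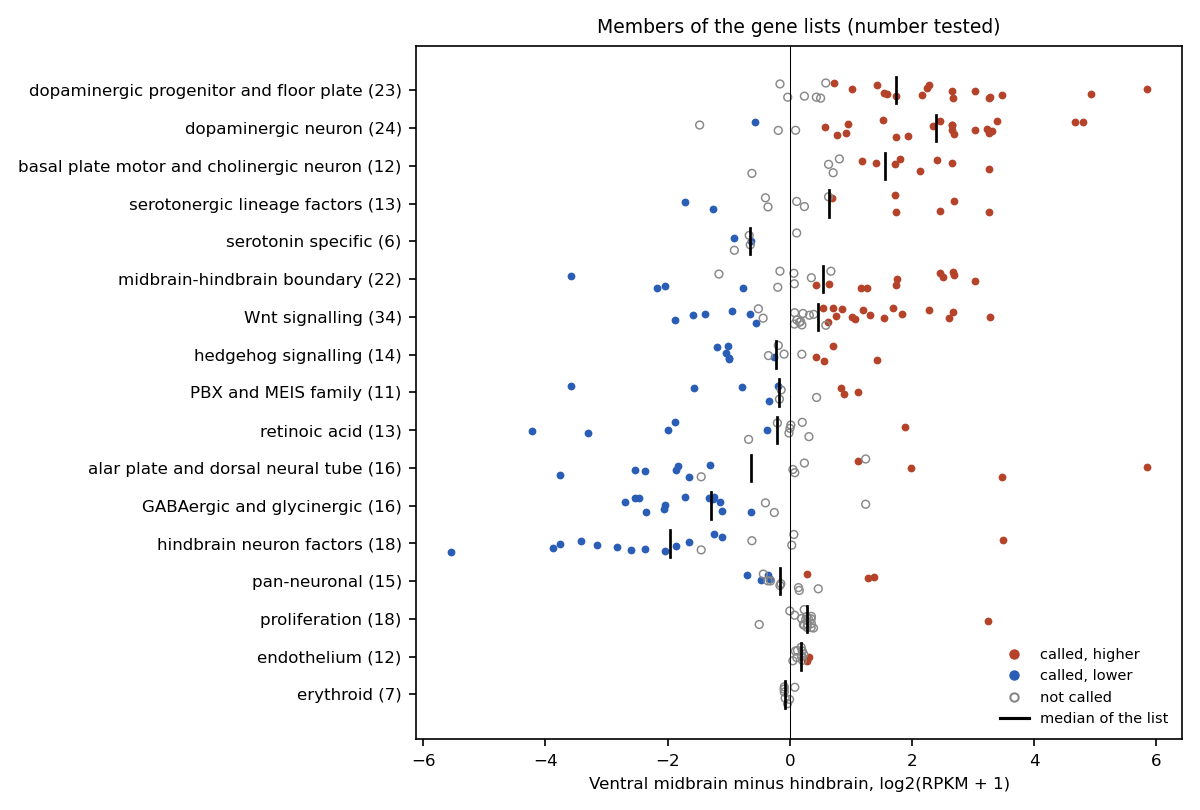
Difference between ventral midbrain and hindbrain (x axis, log2(RPKM + 1)) of the tested members of 17 gene lists (y axis, number tested in parentheses), 1 point per gene, filled red or blue where called higher or lower in the ventral midbrain, with a black line at the median of the list. The floor plate and dopaminergic neuron lists have medians of 1.73 and 2.40, and the GABAergic and hindbrain neuron lists have medians of -1.28 and -1.95.

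Most motor neuron genes tested were higher in the ventral midbrain. Isl1, a LIM-homeodomain factor of motor neurons, was at 20.1, 14.7 and 14.3 RPKM in the ventral midbrain against 0.905, 1.82 and 0.0618 RPKM in the hindbrain (3.26 ± 0.32, adjusted p = 0.000585). Slc5a7, the choline transporter, was at 6.32, 5.12 and 4.7 RPKM against 0.522, 0.614 and 0.246 RPKM (2.13 ± 0.14, adjusted p = 9.43e-05), and Slc18a3, which loads acetylcholine into vesicles, at 4.81, 5.57 and 3.99 RPKM against 0.189, 1.56 and 0.484 RPKM (1.8 ± 0.27, adjusted p = 0.00386). Nkx6-2 and Nkx2-9, of ventral progenitors, differed by 1.41 ± 0.23 and 1.72 ± 0.12. Of 12 tested genes of the motor and cholinergic list 8 were higher and none lower, with a median of 1.57. The same count stood in the fit of all 15 libraries. Genes of the neighbouring caudal diencephalon and red nucleus were 8 higher and 4 lower of 14 tested, and 5 higher and 4 lower in the fit of all 15 libraries. Emx2, known from forebrain, was at 19.8, 21.1 and 27.2 RPKM in the ventral midbrain and 0.323, 0 and 0.581 RPKM in the hindbrain (4.2 ± 0.18, adjusted p = 2.13e-05), and its means of 15.2, 17.6 and 13.9 RPKM in dorsal midbrain, alar plate and forebrain set the hindbrain apart as the low region. Sim1, a factor of ventral midbrain and diencephalon cells, was at 5.44, 4.21 and 4.16 RPKM against 0.0383, 0.0344 and 0.805 RPKM (2.16 ± 0.23). Irx1 and Irx3, Iroquois homeodomain factors, were lower in the ventral midbrain, by -1.77 ± 0.15 and -1.3 ± 0.26. Leaving out 1 library ended the call of Irx3 (without ventral midbrain 1 or 3, adjusted p from 0.0513 to 0.0527). Nkx6-2 was not called when all 15 libraries shared a fit (adjusted p = 0.331).

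Retinoic acid, a signal known for patterning the hindbrain, is broken down by Cyp26b1 and bound in the cell by Crabp1 and Crabp2. Cyp26b1 was at 0.739, 2.26 and 1.01 RPKM in the ventral midbrain and 25.5, 50.9 and 52.1 RPKM in the hindbrain (-4.21 ± 0.32, adjusted p = 0.000155). Crabp1 was at 1.58, 1.01 and 0.994 RPKM against 9.84, 32.5 and 26.4 RPKM (-3.3 ± 0.38, adjusted p = 0.00122), and Crabp2 at 13.9, 9.64 and 7.81 RPKM against 49, 45.2 and 37.2 RPKM (-2.0 ± 0.19, adjusted p = 0.000427). Of the regions, the hindbrain had the highest mean of Cyp26b1 only. Crabp1 and Crabp2 had means of 22.9 and 43.8 RPKM there, against 74.5 and 74.4 RPKM in the dorsal midbrain and 42.0 and 106.6 RPKM in the alar plate. Nr2f1, an orphan receptor that responds to retinoic acid, was at 17.8, 18 and 17.7 RPKM against 52.4, 75.4 and 79.2 RPKM (-1.87 ± 0.14, adjusted p = 0.000155). The receptor Rxrg was the only one of 13 tested genes of this list to be higher, at 5.85, 5.23 and 5.21 RPKM against 0.618, 0.728 and 0.856 RPKM (1.89 ± 0.10), and 5 were lower. Among the PBX and MEIS family, cofactors of Hox and Engrailed proteins, 3 of 11 were higher and 5 lower. Pknox2, of the same family, was higher by 1.11 ± 0.07. Pbx3 was lower by a small step, at 88.4, 108 and 103 RPKM against 117, 132 and 131 RPKM (-0.34 ± 0.08, adjusted p = 0.0306). Meis2 was lower by a large one (-3.58 ± 0.72, adjusted p = 0.014), as was Meis1 (-1.57 ± 0.41, adjusted p = 0.04). The number of lower genes in the family fell from 5 to 2 without any 1 ventral midbrain library or hindbrain 2, to 1 without hindbrain 3, and to 2 in the fit of all 15 libraries. Among the genes described, leaving out 1 library ended the call of Pbx3 (without ventral midbrain 1 or 3 or hindbrain 2 or 3, adjusted p from 0.0647 to 0.112), Meis2 (without ventral midbrain 2 or hindbrain 3, adjusted p from 0.0569 to 0.0592) and Meis1 (without ventral midbrain 1, 2 or 3 or hindbrain 2 or 3, adjusted p from 0.1 to 0.139). Not called when all 15 libraries shared a fit were Pbx3 and Meis1 (adjusted p from 0.0601 to 0.757). Pbx3 also missed the threshold without the variance trend (adjusted p = 0.0559). Meis1 also missed the threshold without the variance trend, without the filter on low values or in limma voom on recovered reads (adjusted p from 0.0573 to 0.0664).

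Wnt signals act on dopaminergic progenitors, and 16 of 34 tested genes of the pathway were higher in the ventral midbrain and 6 lower, with a median of 0.47. Among the ligands and agonists, Wnt5a was at 41.6, 38.4 and 37.1 RPKM against 13.7, 5.11 and 5.17 RPKM (2.28 ± 0.31, adjusted p = 0.00267), Wnt8b at 8.39, 6.87 and 5.85 RPKM against 0.137, 0.0491 and 0.863 RPKM (2.61 ± 0.23), and Wnt1 as given above. Rspo2, which enhances Wnt signals at the receptor, was at 12.4, 10.5 and 9.78 RPKM against 0.111, 0.298 and 0.283 RPKM (3.27 ± 0.12, adjusted p = 8.68e-06). Among the receptors Fzd10 was at 5.28, 5.5 and 5.33 RPKM against 0.616, 0.663 and 1.08 RPKM (1.84 ± 0.12). Common target genes were modestly higher: Axin2 at 10.9, 9.81 and 10.2 RPKM against 4.89, 5.33 and 5.51 RPKM (0.86 ± 0.07, adjusted p = 0.000323) and Lef1 at 5.33, 4.3 and 4.0 RPKM against 2.27, 1.24 and 1.49 RPKM (1.07 ± 0.16, adjusted p = 0.00413). Inhibitors of the pathway were divided. Apcdd1, which binds Wnt proteins at the membrane and is no member of the list, was at 128, 113 and 113 RPKM against 31.4, 34.1 and 31.9 RPKM (1.83 ± 0.06, adjusted p = 7.5e-06), and Wif1 was higher by 1.69 ± 0.11. Sfrp1 was lower at 6.08, 8.89 and 9.08 RPKM against 35.5, 22 and 21.7 RPKM (-1.58 ± 0.21), Sfrp2 differed by -1.38 ± 0.18 and Frzb by -1.89 ± 0.39. In the fit of all 15 libraries 5 genes of the pathway were higher and 2 lower. With 1 library left out, the call was lost for Frzb (without ventral midbrain 1 or 2 or hindbrain 3, adjusted p from 0.0578 to 0.0642). When all 15 libraries shared a fit, Fzd10, Axin2, Lef1, Wif1, Sfrp1 and Sfrp2 were not called (adjusted p from 0.0817 to 0.22).

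In the hedgehog pathway the ligand Shh was higher in the ventral midbrain, as given above, while several response genes were lower. Gli1, the transcription factor that is itself a target of the pathway, was at 0.648, 0.748 and 0.568 RPKM in the ventral midbrain and 3.08, 2.11 and 1.96 RPKM in the hindbrain (-1.02 ± 0.14, adjusted p = 0.00305). Hhip, a target that binds and restrains the ligand, was at 0.169, 0.362 and 0.344 RPKM against 1.97, 1.27 and 1.53 RPKM (-1.0 ± 0.14, adjusted p = 0.0028). The factors Gli2 and Gli3 were at 0.228, 0.288 and 0.355 and 0.325, 0.42 and 0.392 RPKM in the ventral midbrain, against 2.26, 1.64 and 1.19 and 1.94, 2.09 and 1.27 RPKM in the hindbrain (-1.05 ± 0.16 and -0.99 ± 0.14). The receptor Ptch1, also a target, was hardly lower, at 22.6, 23.8 and 23.2 RPKM against 30.7, 26 and 27 RPKM (-0.26 ± 0.07, adjusted p = 0.0414), while the co-receptor Cdon was higher by 0.71 ± 0.07. In all, 4 of 14 genes were higher and 6 lower. The fit of all 15 libraries called 1 of them lower and none higher. Single libraries decided the call of Ptch1 (without ventral midbrain 1, 2 or 3 or hindbrain 3, adjusted p from 0.0868 to 0.128). The fit of all 15 libraries did not call Gli1, Gli2, Gli3, Ptch1 and Cdon (adjusted p from 0.198 to 0.926). Ptch1 also missed the threshold without the filter on low values or without the variance trend (adjusted p from 0.0554 to 0.0672).

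Axon guidance genes were 6 higher and 13 lower of 40 tested, with a median of 0.05, beside 8.2% and 8.28% of all genes tested. Slit2, a repellent secreted at the midline, was at 132, 117 and 128 RPKM in the ventral midbrain against 67.1, 28.4 and 31.6 RPKM (1.65 ± 0.28, adjusted p = 0.00733). The Eph receptors Epha3, Epha4, Epha5 and Ephb1 were all lower there, by -0.92, -1.37, -1.74 and -1.44 on the log2(RPKM + 1) scale. Epha5, for example, was at 7.03, 9.1 and 8.81 RPKM against 25.4, 31.3 and 34.1 RPKM (adjusted p = 0.000137). Among neuropeptides 7 of 18 were higher and 3 lower. Cartpt, a peptide of several brain nuclei, was at 47.1, 35.6 and 36.4 RPKM against 0.586, 4.38 and 2.33 RPKM (3.73 ± 0.39, adjusted p = 0.000718), and Cck, known from mature dopaminergic neurons, at 5.78, 9.33 and 5.67 RPKM against 0.121, 0.434 and 0.206 RPKM (2.64 ± 0.19). The opioid precursors Pdyn and Penk were lower, at 1.31, 1.61 and 4.17 and 0.513, 1.64 and 1.91 RPKM against 6.96, 12.9 and 11.7 and 5.34, 6.27 and 4.72 RPKM (-1.83 ± 0.33 and -1.5 ± 0.24). Among channels and receptors of aminergic neurons, 4 of 18 were higher and 8 lower. The leak channel Kcnk9 was at 41.4, 43.3 and 41.5 RPKM against 2.4, 4.17 and 3.22 RPKM (3.36 ± 0.14, adjusted p = 1.71e-05), and the nicotinic subunit Chrna5 was lower, at 1.25, 1.05 and 1.24 RPKM against 4.59, 5.69 and 4.37 RPKM (-1.43 ± 0.11). The fit of all 15 libraries called 2 guidance genes higher and 4 lower, 3 peptides higher and 1 lower, and 2 channel genes higher and 3 lower. Lower channel and receptor genes numbered 5 without any 1 ventral midbrain library, hindbrain 2 or hindbrain 3, and without hindbrain 1 higher guidance genes numbered 10 and lower peptides 5. Not called when all 15 libraries shared a fit were Epha3, Cartpt and Penk (adjusted p from 0.0596 to 0.547).

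Of 15 tested genes common to neurons in general 7 were called, as were 7 of 15 common to progenitors, beside 16.5% of all genes tested. Tubb3, the neuronal tubulin, was at 1062, 1159 and 1104 RPKM against 876, 1092 and 1026 RPKM (adjusted p = 0.28). The neurofilament genes Nefl and Nefm were higher in the ventral midbrain, by 1.28 ± 0.28 and 1.39 ± 0.23, and Dcx, of migrating young neurons, was lower by a small step (-0.36 ± 0.06). Nnat, an imprinted gene of differentiating neurons and among the most abundant here, was at 1064, 1222 and 1160.1 RPKM in the ventral midbrain and at 2265, 2396 and 2248 RPKM in the hindbrain (-1.0 ± 0.07, adjusted p = 0.000139). Of 15 pan-neuronal genes 3 were higher and 4 lower, and of 15 progenitor and radial glia genes likewise 3 and 4. Sox1, a progenitor factor, was at 6.38, 9.44 and 8.49 RPKM against 37.9, 20.2 and 19.4 RPKM (-1.51 ± 0.25), and Pax6 at 0.675, 1.02 and 1.38 RPKM against 5.13, 9.87 and 10.3 RPKM (-2.18 ± 0.24, adjusted p = 0.00104). Of 18 proliferation genes only Ccnd2, a cyclin of the first gap phase, was called. It was at 109, 92.9 and 84.7 RPKM against 16.6, 7.21 and 6.24 RPKM (3.24 ± 0.30, adjusted p = 0.000427), while the related Ccnd1 was at 23.5, 19 and 18.4 RPKM against 41.5, 22.5 and 25.9 RPKM and was not called (-0.5 ± 0.21, adjusted p = 0.145). Mki67, a marker of cycling cells, was at 25, 15.2 and 16.6 RPKM against 21.6, 11.4 and 13.5 RPKM, so the library numbered 1 was the highest in either region. With the replicate number as a block, 11 proliferation genes were higher and 1 lower, 5 pan-neuronal genes were higher and 9 lower, and 7 progenitor genes were higher and 4 lower. Mki67 was among the higher ones (adjusted p = 0.0155). Without hindbrain 1, 8 proliferation and 9 progenitor genes were higher and 8 pan-neuronal genes lower. Without any 1 ventral midbrain library, 1 progenitor gene was higher and 2 were lower. The call rested on single libraries for Nefl (without ventral midbrain 1, 2 or 3, adjusted p from 0.0576 to 0.0726). When all 15 libraries shared a fit, Nefl, Dcx and Pax6 were not called (adjusted p from 0.0601 to 0.823). Ccnd1 was called lower with the replicate number as a block (adjusted p = 0.0237).

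Markers of other cell types showed how far the samples differed in what else they held. The summed level of 11 erythroid genes was 1308 to 1348 RPKM in the ventral midbrain and 1311 to 1578 RPKM in the hindbrain, and none of the 7 tested was called. The 12 endothelial genes summed to 76.3 to 85.0 RPKM and 64.6 to 74.2 RPKM, with Kdr and Tie1 called higher in the ventral midbrain, by 0.32 ± 0.07 and 0.28 ± 0.07. The 11 microglial genes summed to 21.4 to 25.1 RPKM and 17.2 to 21.6 RPKM, and the 12 meningeal genes to 7.07 to 7.83 RPKM and 4.72 to 9.54 RPKM, with none called. The 10 genes listed for choroid plexus summed to 105.3 to 127.6 RPKM in the ventral midbrain and 34.3 to 54.1 RPKM in the hindbrain. Of these, Otx2, Folr1 and Foxj1 were called higher, but Ttr, which defines the choroid plexus, was at most 0.0703 RPKM in the ventral midbrain. The part of vessel cells in other results was not tested. Leaving out 1 library ended the call of Kdr (without ventral midbrain 1 or 2 or hindbrain 2 or 3, adjusted p from 0.0599 to 0.0653) and Tie1 (without ventral midbrain 1, 2 or 3 or hindbrain 1, 2 or 3, adjusted p from 0.0504 to 0.122). The fit of all 15 libraries did not call Kdr, Tie1 and Foxj1 (adjusted p from 0.0561 to 0.501). Tie1 also missed the threshold without the filter on low values or after quantile normalization (adjusted p from 0.0648 to 0.0664).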

How the data were processed

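RNA-seq was measured in 15 libraries of 5 regions of the mouse brain at E12.5, 3 per region, of which the 6 of ventral midbrain and hindbrain were compared here. TruSeq libraries (Illumina) started from 200 ng of RNA, per the labels' protocols. The authors deposited RPKM values per gene for 24264 genes, which scale reads for gene length and library size. The submitters' processing notes name Bowtie and the build mm9. Not given in the sources used here are counting, annotation and strand. Values of overlapping, antisense and near-identical genes are therefore uncertain.

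A limma fit (limma 3.58.1 under R 4.3.3) with a variance trend was made on log2(RPKM + 1), in the 6 libraries alone and without a block, for the 13205 genes with at least 1 RPKM in at least 3 libraries. Two-sided p-values were adjusted over all 13205 genes by the Benjamini-Hochberg method, with an adjusted p under 0.05 as the threshold of a call. Values after ± are standard errors of differences, which are ventral midbrain minus hindbrain. The log2(RPKM + 1) scale understates changes of weakly expressed genes. Because RPKM values step in whole reads, reads could be recovered: of 16612 genes above 0 in at least 10 of the 15 libraries, 16595 (99.9%) gave whole reads throughout, within 0.02 reads at low values and never more than 0.15. They gave depths, floors of 3 reads, which cover counting error only, and a test with limma voom that called 2331 genes. The code was tested on simulated data.

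The rule for named genes took the 15 highest and 15 lowest differences among called genes whose groups did not overlap and whose higher mean was at least 5 RPKM. It also took every member of 8 lists (transmitter genes, lineage factors, floor plate, boundary, Hox), up to 8 members of each other list, paralogues of named genes and the 8 smallest adjusted p. Nr4a2, Ptch1, Axin2, Lef1, Nnat, Sfrp2, Calb1 and Dcc were added after their values were seen. The members and lists were chosen with earlier results of these data known. Lists share members, and some genes that the rule took are not reported here.

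Libraries of the same number deviated together: their deviations from the group means correlated at 0.312, 0.287 and 0.233 across genes for numbers 1, 2 and 3, and the sex-linked genes matched by number. The replicate number was therefore used as a block in an alternative. Other alternatives changed the pseudocount, the filter, the scaling, the libraries in the fit and the variance model, or left out each library in turn. Promoter windows come from RefSeq on GRCm38.p6, in which 9071 of the 13205 tested genes were matched. No coordinates of the authors' build were used.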

Additional observations from a re-analysis of the deposited data

How the results depend on the processing

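The number of genes called (2176, with 1083 higher and 1093 lower in the ventral midbrain) depended most on which libraries entered the fit. With all 15 libraries in a fit it was 524 (328 higher and 196 lower), of which 521 were among the 2176. Leaving out 1 library gave 1217 to 3611 calls, with 660 to 1932 higher and 557 to 1679 lower. The largest number came without hindbrain 1, and the cause was not tested. With the replicate number as a block 3184 genes were called, 1589 higher and 1595 lower, and of the genes described above it changed the calls of Drd2, Phox2a, Tfap2b, Nkx2-2, Ccnd1 and Mki67. A pseudocount of 0.1 gave 2151 calls, a minimum of 5 RPKM 1704 among 9614 genes, no filter 2103 among 18964 genes, quantile normalization 2191, median-ratio scaling 2177, no variance trend 1963 and limma voom on recovered reads 2331. The minimum of 5 RPKM left 7 dorsal, 5 hedgehog, 31 guidance and 3 serotonin genes tested: 3 dorsal genes were then higher and 2 lower, 3 hedgehog genes higher and 1 lower, and no serotonin gene was called. The medians of the first 3 of these lists turned from -0.63, -0.22 and 0.05 to 1.24, 0.42 and -0.037. Scaling moved the median difference of all genes by less than 0.1. Fev, not called in any of these, had differences from -0.066 to 0.30 with 1 library left out, below 0 without ventral midbrain 2 (-0.066) or hindbrain 2 (-0.030). Of 116 named genes that were called, none changed direction under any alternative that tested it, with 89 of them tested at the minimum of 5 RPKM. This was largely fixed in advance. The filters, the block, the variance trend and the fit of all 15 libraries leave the difference itself unchanged. The groups did not overlap for 2175 of the 2176 called genes, so another pseudocount or 1 library left out could hardly reverse a difference. With a pseudocount of 0.1, 32 of the 116 genes had differences over 1.5 times as large, and 36 had with limma voom on recovered reads. At 3 reads, a gene of median length reaches 0.0821 to 0.112 RPKM, so differences among lower values, such as most Hox genes, were not detectable at this depth.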

Other observations

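Shisa3, Cdh8 and Nkx1-2 belong to none of the lists, and Folr1 belongs to that of the choroid plexus alone. Shisa3, a modulator of Wnt and FGF receptors, was at 17.8, 21.3 and 22.2 RPKM in ventral midbrain 1, 2 and 3 and at 1.16, 0.421 and 0.421 RPKM in hindbrain 1, 2 and 3 (3.71 ± 0.18, adjusted p = 2.67e-05). Its means were 0.0726, 22.3 and 16.4 RPKM in dorsal midbrain, alar plate and forebrain. Folr1, a folate receptor, was at 11.4, 9.62 and 9.62 RPKM against 0.442, 0.17 and 0.269 RPKM (3.12 ± 0.12, adjusted p = 9.95e-06). Cdh8, a classical cadherin of the nervous system, was lower in the ventral midbrain at 6.68, 7.93 and 7.92 RPKM against 33.6, 56.6 and 69.6 RPKM (-2.62 ± 0.23, adjusted p = 0.000347). Nkx1-2, a homeodomain factor, was at 0.0554, 0.17 and 0 RPKM against 4.46, 8.86 and 8.95 RPKM (-2.92 ± 0.23, adjusted p = 0.000204). Shisa3 was not called when all 15 libraries shared a fit (adjusted p = 0.0979).

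Msx2 and Dmrta1, relatives of 2 leading ventral midbrain factors, were also higher there, at lower levels than those factors. Msx2, the relative of Msx1, was at 2.16, 1.96 and 1.89 RPKM against 0.042, 0 and 0.0358 RPKM (1.55 ± 0.10). Dmrta1, the relative of Dmrta2, was at 1.65, 1.39 and 1.29 RPKM against 0, 0.0409 and 0.0389 RPKM (1.25 ± 0.11).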
